A study of Sus scrofa with 32 samples.

Results

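The proteasome and the ubiquitin-conjugating enzymes were followed in fetal pig liver through 61 genes, chosen by symbol alone. A gene was a member when its array symbol began with PSMA, PSMB, PSMC, PSMD, PSME or UBE2. The PSM symbols (37 genes) name proteasome subunits and activators, and also PSMD5 and PSMD10, which are assembly chaperones. The UBE2 symbols (24 genes) name ubiquitin-conjugating enzymes. The members were 61 of the 6765 genes that the array names singly, each read from the probe set with the highest mean over all arrays. The samples were livers of Pietrain fetuses at 35, 63 and 91 days post coitum (dpc), 1 array each. Their mothers received a control gestation diet or one enriched in methylating micronutrients, which feed the supply of methyl groups. Each diet had 5 arrays at 35 dpc, 6 at 63 dpc and 5 at 91 dpc, 32 in all. The study's design text names offspring of 5 to 6 gilts per stage, but no array is tied to a dam. Fetuses that share a dam would make the p-values too small, and the spread may be technical in part.

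Protein that is to be destroyed is tagged with ubiquitin in a relay of 3 enzymes. An E1 enzyme activates ubiquitin, an E2 enzyme (most UBE2 genes) carries it, and an E3 ligase joins it to the target. The tagged protein is unfolded by the regulatory particle of the proteasome, whose ring of ATPases (PSMC) and non-ATPase subunits (PSMD) recognise and thread it. It is then cut inside the core particle, a stack of alpha (PSMA) and beta (PSMB) rings. The fetal liver is also a blood-forming organ, in which dividing red cell precursors lie among hepatocytes and leave as gestation proceeds, and maturing red cells are known for extensive ubiquitin-dependent remodelling of their proteins.

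Values are log2 signals as deposited, and the number of arrays limits their precision. Array medians ran from 3.84 to 4.23. The labels do not give a pair of array features that touch the results. The spike-in control probe sets bioC and bioB parted the arrays into 18 with a gap of 1.39 to 1.83 between them (high-gap) and 14 with a gap of 0.16 to 0.39 (low-gap), with 3 high-gap arrays in every diet and age. The erythroid marker mean (9 genes, among them ALAS2, KLF1 and EPOR) was 10.16 to 10.85 at 35 dpc, 9.62 to 10.34 at 63 dpc and 7.55 to 8.71 at 91 dpc, with no overlap between 63 and 91 dpc. Its genes did not all move together. HBB rose from 35 to 63 dpc (1.34) and from 63 to 91 dpc (0.68). TFRC passed in neither and ran from 4.71 to 9.55 at 35 dpc alone. This mean, with both genes in it, serves as a covariate below. The mean of 7 markers of dividing cells went from 9.63 to 10.13, through 9.09 to 9.54, to 7.21 to 8.17. From 35 to 63 dpc 4 of the 7 fell, TOP2A rose (0.90), and CCNB1 and CCNA2 did not pass. From 63 to 91 dpc 6 fell and TOP2A did not pass (0.07). The mean of 7 hepatocyte markers was 14.52 to 15.18 at 35 dpc, 15.37 to 15.64 at 63 dpc and 15.52 to 15.75 at 91 dpc, so the labelled tissue was seen at every age and 35 did not overlap with 63 dpc. In whole liver, fewer cells of a type and less RNA per cell cannot be told apart.

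Proteasome genes fell with gestational age. From 35 to 63 dpc 21 of 37 (56.8%) fell and 5 rose by limma at an adjusted p under 0.05, with a median log2 difference of -0.30. Over all 15327 probe sets tested, 28.0% were called lower and 32.5% higher, and the median was 0.05. From 63 to 91 dpc 27 of 37 (73.0%) fell and 1 rose, with a median of -0.42, against 29.0% of all probe sets lower and 29.5% higher and a median of -0.03. Of 23 UBE2 genes that passed the filter on low values, 9 (39.1%) fell and 8 (34.8%) rose in the first interval (median -0.03). The share of rises was near the 32.5% of all probe sets, and that of falls was above their 28.0%. In the second interval 11 (47.8%) fell and 3 rose (median -0.25), against 29.0% and 29.5% of all probe sets. With the erythroid marker mean of each array as a covariate 0 of the second-interval calls held by limma, for proteasome or UBE2 genes, where 4.52% of all probe sets were called with it and 58.5% without. In the first interval 36 members were called with it and 43 without, against 48.4% and 60.5% of all probe sets. The 8 UBE2 rises of the first interval were 1 in control-diet arrays alone and 4 in low-gap arrays alone, where 16.1% and 15.4% of all probe sets were called higher. The count of 5 proteasome rises ran from 2 to 6 on leaving out each array in turn and was 0 in control-diet arrays alone. The arrays of 35 and 63 dpc did not overlap for 7 members that were lower and 1 that was higher, where 4.99% and 3.61% of all probe sets did so. Those of 63 and 91 dpc did not overlap for 14 members that were lower and 0 that were higher, where 6.94% and 6.11% of all probe sets did so. Both intervals use the arrays of 63 dpc, so their values are set side by side without a test of one against the other.

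**Figure D1:**
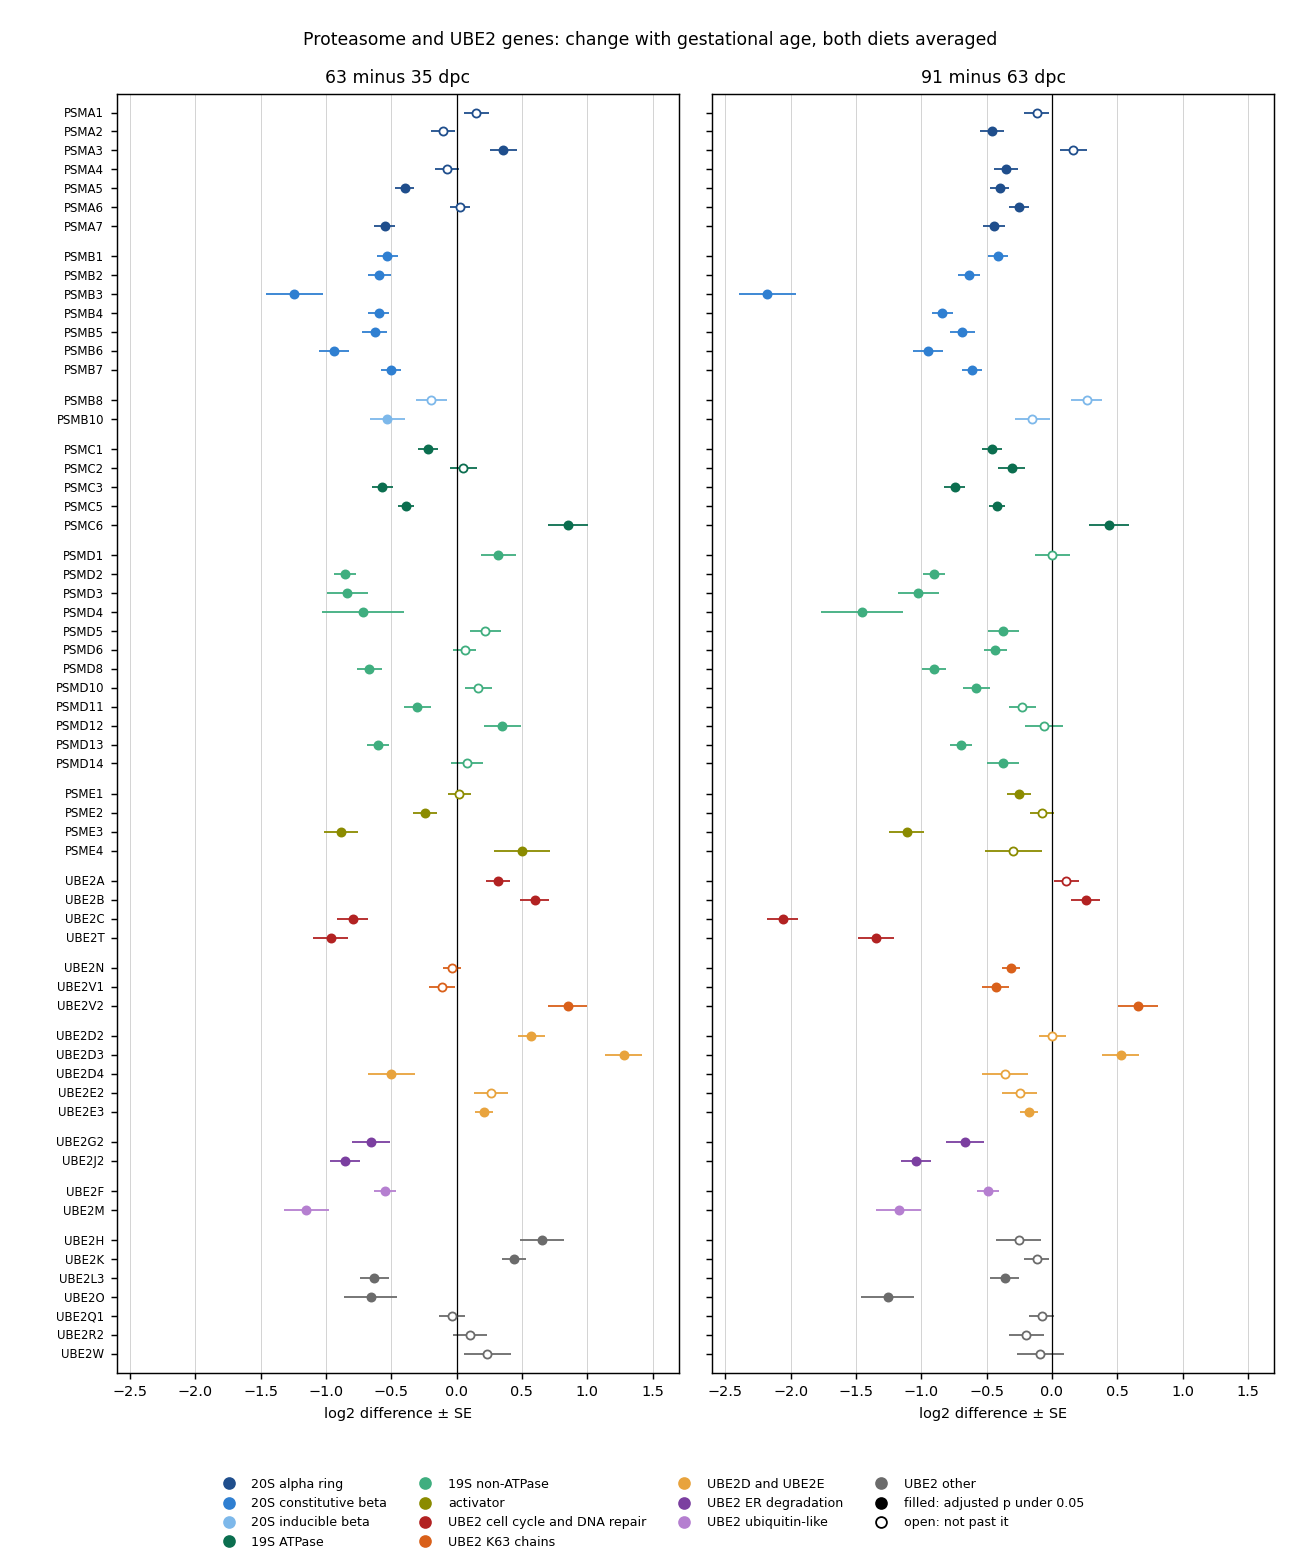
Log2 difference between ages with its SE for the 60 members tested, in order of their role, with 63 minus 35 dpc on the left and 91 minus 63 dpc on the right. Filled points passed an adjusted p of 0.05 by limma. The 7 constitutive beta subunits lie left of 0 in both panels, and UBE2D3, UBE2V2 and PSMC6 lie right of 0 in both.

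The constitutive beta rings of the core particle fell as a whole. All 7 constitutive beta subunits (PSMB1 to PSMB7) fell in both intervals, with log2 differences from -1.24 to -0.50 and then from -2.18 to -0.41. PSMB3, a structural beta subunit, had the largest fall of any member in each interval. Its signal was 8.98 to 10.31 (median 9.86) at 35 dpc, 7.87 to 9.36 (median 8.45) at 63 dpc and 5.08 to 7.21 (median 6.33) at 91 dpc. Arrays of 91 dpc lay below all those of 63 dpc, while 63 and 35 dpc overlapped. The differences were -1.24 ± 0.22 SE (limma adjusted p = 1.8e-05) and -2.18 ± 0.22 (limma adjusted p = 1.48e-09), the second a 4.53-fold fall. The other structural subunits had smaller falls, PSMB4 with -0.60 and -0.84, PSMB2 with -0.59 and -0.64, and PSMB1 with -0.53 and -0.41. The alpha ring, which gates the entrance to the core, had 2 falls (28.6%) and 1 rise (14.3%) among 7 in the first interval. Of all probe sets 28.0% were called lower and 32.5% higher in that interval, so its share of falls was near the background. In the second interval the alpha ring had 5 falls (71.4%), beside 29.0% of all probe sets. PSMA7 (-0.55 and -0.44) and PSMA5 (-0.40 and -0.40) fell in both. PSMA3 went from 10.08 to 10.98 (median 10.35) to 10.54 to 11.03 (median 10.75) and 10.61 to 11.22 (median 10.98), a rise of 0.36 ± 0.10 in the first interval (limma adjusted p = 0.00326) and 0.16 ± 0.10 in the second, which did not pass (limma adjusted p = 0.166). PSMA2, PSMA4 and PSMA6 did not pass in the first interval (-0.10, -0.07 and 0.02) and fell in the second, with differences of -0.46, -0.35 and -0.25. PSMA1 passed in neither (0.15 and -0.12).

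Of the beta subunits, 3 carry the cutting sites, and immune signals can replace them with inducible forms that suit antigen presentation. PSMB5, the chymotrypsin-like site, was 10.75 to 11.68 (median 11.38) at 35 dpc, 10.40 to 11.13 (median 10.74) at 63 dpc and 9.67 to 10.35 (median 10.05) at 91 dpc. It fell by 0.63 and then by 0.69 on the log2 scale, without overlap between 63 and 91 dpc. PSMB6, the caspase-like site, was 11.43 to 12.48 (median 12.21) at 35 dpc, 10.86 to 11.75 (median 11.04) at 63 dpc and 10.003 to 10.55 (median 10.15) at 91 dpc. Its falls were -0.94 ± 0.11 (limma adjusted p = 7.01e-08) and -0.95 ± 0.11 (limma adjusted p = 3.96e-08), and again 91 dpc lay below 63 dpc on every array. PSMB7, the trypsin-like site, was 11.85 to 12.45 (median 12.25) at 35 dpc, 11.51 to 12.07 (median 11.69) at 63 dpc and 10.79 to 11.38 (median 11.15) at 91 dpc, with differences of -0.50 ± 0.08 and -0.61 ± 0.08. Each catalytic subunit of the standard core had its lowest median at 91 dpc. The inducible subunit PSMB10, which can take the place of PSMB7, was 7.55 to 8.65 (median 7.95) at 35 dpc, 7.09 to 8.13 (median 7.49) at 63 dpc and 6.95 to 7.63 (median 7.33) at 91 dpc. It fell in the first interval (-0.53 ± 0.13, limma adjusted p = 0.00118) and did not pass in the second (-0.15 ± 0.13, limma adjusted p = 0.34), and its ages overlapped throughout. PSMB8, which can take the place of PSMB5, was near background: it was at or below its array's 40th percentile on 7 of 10, 12 of 12 and 6 of 10 arrays. Its highest values were 3.43 at 35 dpc and 3.47 at 91 dpc, and neither difference passed (-0.19 and 0.27, the latter with limma adjusted p = 0.0532). The second of these passed on leaving out any of 8 single arrays, with differences of 0.27 to 0.31 and limma adjusted p down to 0.0281. PSMB9 is not named on the array.

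**Figure D2:**
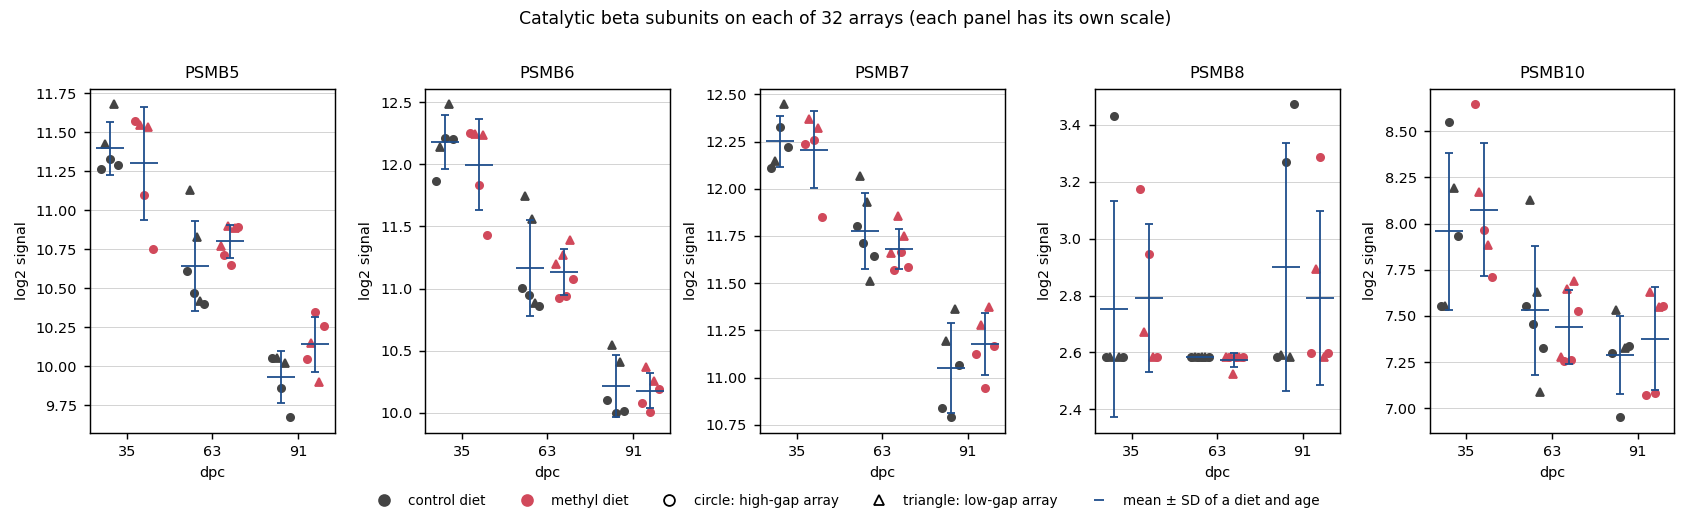
Log2 signal of the catalytic beta subunits on each of 32 arrays against age in dpc, by diet (colour) and spike-in gap (shape), with the mean and SD of each diet and age. PSMB5, PSMB6 and PSMB7 have a lower median at each later age, PSMB10 overlaps between ages, and PSMB8 sits near 2.58 on most arrays.

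Among the 5 ATPases of the regulatory particle on the array, 3 fell and 1 rose in the first interval. In the second 4 fell and 1 rose. Of all probe sets 28.0% were called lower and 32.5% higher in the first interval, and 29.0% and 29.5% in the second. PSMC3 was 10.91 to 11.39 (median 11.10) at 35 dpc, 10.12 to 10.80 (median 10.58) at 63 dpc and 9.55 to 10.16 (median 9.77) at 91 dpc, with differences of -0.57 ± 0.08 (limma adjusted p = 7.88e-07) and -0.74 ± 0.08 (limma adjusted p = 6.46e-09). PSMC5 (-0.39 and -0.42) and PSMC1 (-0.22 and -0.46) also fell in both, and PSMC2 did not pass in the first (0.05) and fell in the second (-0.31). Both dimmer probe sets of PSMC2 rose in the first interval (0.71 and 0.42) and did not pass in the second (0.02 and -0.16). PSMC6, which sits in the same ring, rose in both intervals. It was 8.89 to 10.41 (median 9.35) at 35 dpc, 9.69 to 11.05 (median 10.41) at 63 dpc and 10.58 to 11.16 (median 10.68) at 91 dpc, so that 35 and 91 dpc did not overlap. Its rise was 0.85 ± 0.15 in the first interval (limma adjusted p = 2.52e-05) and 0.44 ± 0.15 in the second (limma adjusted p = 0.0162). In control-diet arrays alone the first difference was 0.56 (limma adjusted p = 0.132) and in methyl-diet arrays alone 1.15 (limma adjusted p = 1.45e-06), and in low-gap arrays alone it did not pass (0.65). The second difference did not pass in either diet alone (0.59 and 0.29), in high-gap (0.40) or low-gap arrays alone (0.48), or with the 3' to 5' difference of control probe sets, a measure of RNA integrity, as a covariate (0.39). PSMC4 is not named on the array.

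The 12 genes of the non-ATPase class, the assembly chaperones PSMD5 and PSMD10 among them, had 6 falls (50.0%) and 2 rises (16.7%) in the first interval. In the second they had 9 falls (75.0%) and no rise. All probe sets had 28.0% lower and 32.5% higher in the first, and 29.0% and 29.5% in the second. PSMD2, the scaffold to which ubiquitin shuttles dock, was 10.62 to 10.97 (median 10.77) at 35 dpc, 9.49 to 10.27 (median 9.97) at 63 dpc and 8.78 to 9.24 (median 9.03) at 91 dpc. It separated the 3 ages completely, with differences of -0.85 ± 0.08 (limma adjusted p = 1.48e-09) and -0.90 ± 0.08 (limma adjusted p = 2.36e-10). PSMD3, PSMD8 and PSMD13 of the lid fell in both intervals, with differences of -0.84 and -1.02, -0.67 and -0.90, and -0.60 and -0.70. PSMD4, a ubiquitin receptor, spread widely, at 9.87 to 11.35 (median 11.02) at 35 dpc, 9.03 to 10.89 (median 10.28) at 63 dpc and 7.33 to 9.68 (median 8.20) at 91 dpc. Its first fall was on the edge of the threshold (-0.72 ± 0.31, limma adjusted p = 0.0499) and was undone by omitting any of 17 single arrays, with limma adjusted p up to 0.102. Its arrays parted by spike-in gap, most clearly at 91 dpc, where the 6 high-gap arrays were 7.33 to 8.29 and the 4 low-gap arrays 9.52 to 9.68. In high-gap arrays alone the first difference was -0.96 (limma adjusted p = 0.0035), and in low-gap arrays alone -0.63 (limma adjusted p = 0.00689). The second difference was -1.61 and -0.95 there, and over all arrays -1.46 ± 0.31 (limma adjusted p = 0.000223). PSMD14, the deubiquitinase that removes chains before entry, did not pass in the first interval (0.08) and fell in the second (-0.37). The same held for PSMD6 (0.06, then -0.43) and for PSMD5 and PSMD10, chaperones that help to build the ATPase ring (0.22, then -0.37, and 0.17, then -0.58). PSMD11, whose level is known to limit assembly of the full proteasome, fell in the first interval (-0.30) and did not pass in the second (-0.23). PSMD1 and PSMD12 rose in the first interval by small amounts (0.32 ± 0.14 and 0.35 ± 0.14, limma adjusted p = 0.0435 and 0.0349). These 2 calls did not survive leaving out any of 13 and 7 single arrays. The dimmer probe set of PSMD1 did not pass in that interval (0.18). PSMD7 is not named on the array.

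The activators, which can cap the core in place of the regulatory particle, had 2 falls and 1 rise among 4 in the first interval. They had 2 falls in the second. Beside these counts, 28.0% and 29.0% of all probe sets were called lower in the 2 intervals, and 32.5% and 29.5% higher. PSME3, the nuclear activator, was 7.80 to 8.52 (median 8.06) at 35 dpc, 6.79 to 7.79 (median 7.09) at 63 dpc and 5.61 to 6.70 (median 6.11) at 91 dpc. Neither pair of successive ages overlapped, and it fell by 1.85-fold (-0.88 ± 0.13, limma adjusted p = 1.68e-06) and 2.16-fold (-1.11 ± 0.13, limma adjusted p = 3.17e-08). PSME1 and PSME2, the interferon-inducible pair, differed by smaller amounts. PSME1 had 0.02 and then a fall with a difference of -0.25, and PSME2 a fall with a difference of -0.24 and then -0.08, which did not pass. The PSME2 fall was lost without control 35 dpc replicate 4 (-0.22), control 35 dpc replicate 5 (-0.21) or control 63 dpc replicate 5 (-0.18). PSME4, an activator known from chromatin and germ cells, rose in the first interval (0.50 ± 0.22, limma adjusted p = 0.046), which 14 of the 32 single-array omissions undid, and did not pass in the second (-0.30). Its arrays spread from 7.17 to 8.70 at 35 dpc alone.

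The conjugating enzymes tied to cell division and DNA repair held 2 falls and 2 rises among 4 in the first interval, then 2 falls and 1 rise. Over all probe sets 28.0% were lower and 32.5% higher in the first interval, then 29.0% and 29.5%. UBE2C, which hands ubiquitin to the anaphase-promoting complex so that cyclins are destroyed at mitosis, was 11.27 to 11.88 (median 11.64) at 35 dpc, 10.45 to 11.21 (median 10.78) at 63 dpc and 8.15 to 9.29 (median 8.77) at 91 dpc. The 3 ages did not overlap, and a gap of 1.16 parted 91 from 63 dpc. Its differences were -0.79 ± 0.12 (limma adjusted p = 1.73e-06) and -2.06 ± 0.12 (limma adjusted p = 2.4e-14), the second a 4.17-fold fall. UBE2T, the conjugating enzyme of the Fanconi anaemia pathway of DNA crosslink repair, was 9.15 to 10.04 (median 9.65) at 35 dpc, 8.16 to 9.03 (median 8.71) at 63 dpc and 6.84 to 7.84 (median 7.27) at 91 dpc. It too separated the 3 ages, with -0.97 ± 0.14 (limma adjusted p = 6.82e-07) and -1.35 ± 0.14 (limma adjusted p = 1.53e-09). The mean of the dividing-cell markers did not overlap between 35 and 63 dpc or between 63 and 91 dpc either. Its part in these falls was not tested. The other members of this class, UBE2A and UBE2B, are close relatives that work with the ligase RAD18 in DNA damage tolerance and with RNF20 on histone H2B. They went up in the first interval, UBE2A by 0.32 and UBE2B by 0.60. The dimmer probe set of UBE2A did not pass in that interval (0.13).

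Falls were found in other classes too. UBE2M and UBE2F, which conjugate the ubiquitin-like protein NEDD8 and so switch on cullin ligases, fell in both intervals. UBE2M was 8.40 to 9.84 (median 9.42) at 35 dpc, 7.56 to 9.01 (median 7.95) at 63 dpc and 6.43 to 7.32 (median 6.96) at 91 dpc, with -1.15 ± 0.17 (limma adjusted p = 1.43e-06) and -1.17 ± 0.17 (limma adjusted p = 9.33e-07), and UBE2F had -0.55 and -0.49. UBE2J2 and UBE2G2, which serve the removal of misfolded protein from the endoplasmic reticulum, fell as well. UBE2J2 was 9.30 to 10.13 (median 9.79) at 35 dpc, 8.56 to 9.36 (median 8.87) at 63 dpc and 7.51 to 8.14 (median 7.84) at 91 dpc, with -0.85 ± 0.11 and -1.04 ± 0.11 (limma adjusted p = 3.35e-07 and 8.52e-09), and UBE2G2 had -0.65 and -0.67. UBE2O, a large enzyme that acts as both E2 and E3 and clears ribosomal proteins from maturing red cells, was 10.43 to 11.43 (median 10.96) at 35 dpc, 9.80 to 11.03 (median 10.32) at 63 dpc and 8.03 to 10.08 (median 9.10) at 91 dpc. Its differences were -0.66 ± 0.20 (limma adjusted p = 0.0064) and -1.26 ± 0.20 (limma adjusted p = 4.92e-06). At 91 dpc its arrays had an SD of 0.74, against 0.33 at 63 dpc. UBE2L3, a partner of HECT and RBR ligases, fell in both with -0.63 and -0.36. Its dimmer probe set fell in the first interval (-0.56) and did not pass in the second (-0.17).

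The largest rise from 35 to 63 dpc was that of UBE2D3, a conjugating enzyme that serves a wide range of ligases. It was 7.44 to 9.16 (median 8.50) at 35 dpc, 9.37 to 10.12 (median 9.63) at 63 dpc and 9.93 to 10.38 (median 10.24) at 91 dpc. Every array of 63 dpc lay above every array of 35 dpc, and the difference was 1.28 ± 0.14, 2.43-fold (limma adjusted p = 1.39e-08). It rose again to 91 dpc (0.53 ± 0.14, limma adjusted p = 0.00207), but this did not pass in methyl-diet arrays alone (0.44) or in high-gap arrays alone (0.48). Its probe set and that of UBE2E3 are of a kind (_s_at) that may match several transcripts, so close relatives may share the signal. UBE2V2, which had the largest rise from 63 to 91 dpc, is an inactive E2 variant that steers UBE2N to signalling chains. It was 7.22 to 8.53 (median 7.75) at 35 dpc, 7.91 to 9.31 (median 8.73) at 63 dpc and 9.13 to 9.65 (median 9.33) at 91 dpc, with rises of 0.85 ± 0.15 (limma adjusted p = 1.93e-05) and 0.66 ± 0.15 (limma adjusted p = 0.000438). Its first rise did not pass in control-diet arrays alone (0.68), and in low-gap arrays alone neither passed (0.65 and 0.63). UBE2V1, the other variant, and UBE2N itself did not pass in the first interval (-0.11 and -0.04) and fell in the second (-0.43 and -0.31). UBE2B was 9.06 to 10.28 (median 9.55) at 35 dpc, 9.60 to 10.54 (median 10.29) at 63 dpc and 10.20 to 10.66 (median 10.43) at 91 dpc. It rose by 0.60 ± 0.11 (limma adjusted p = 2.93e-05) and 0.26 ± 0.11 (limma adjusted p = 0.0439). The second rise no longer passed when any of 12 single arrays was omitted or with quantile normalization (0.24). As given above, most UBE2 rises of the first interval were not called in control-diet arrays alone.

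UBE2H, a partner of the CTLH ligase complex, was 8.16 to 9.77 (median 8.73) at 35 dpc, 8.90 to 10.002 (median 9.49) at 63 dpc and 8.79 to 9.82 (median 9.12) at 91 dpc. It rose in the first interval (0.65 ± 0.17, limma adjusted p = 0.00166) and did not pass in the second (-0.25). UBE2D2 (0.57), UBE2K, which extends degradation chains (0.44), and UBE2E3 (0.21) also rose in the first interval. In the second, UBE2D2 had a difference of 0.00 ± 0.10, which did not pass, UBE2K did not pass (-0.12) and UBE2E3 fell (-0.17). That fall was lost without control 63 dpc replicate 6 (-0.16), methyl 63 dpc replicate 2 (-0.16), control 91 dpc replicate 4 (-0.16), methyl 91 dpc replicate 4 (-0.14) or methyl 91 dpc replicate 5 (-0.15). Both dimmer probe sets of UBE2E3 also fell in the second interval (-0.32 and -0.65, limma adjusted p = 0.0338 and 0.000338). Neither passed in the first (0.08 and 0.10), so the UBE2E3 rise rests on the brightest probe set alone. UBE2D4, whose signal was 4.003 to 5.52 (median 4.28) at 35 dpc and 3.34 to 4.68 (median 4.003) at 63 dpc, fell in the first interval (-0.50). The single value 4.003 recurred on 3 of 10 arrays at 35 dpc, 7 of 12 at 63 dpc and 3 of 10 at 91 dpc, which limits this difference. UBE2E2, UBE2Q1, UBE2R2 and UBE2W passed in neither interval, with differences between -0.25 and 0.26. UBE2QL1 was at or below its array's 40th percentile on 9 of 10, 12 of 12 and 10 of 10 arrays and was not tested. UBE2S and UBE2L6 are not named on the array.

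**Figure D3:**
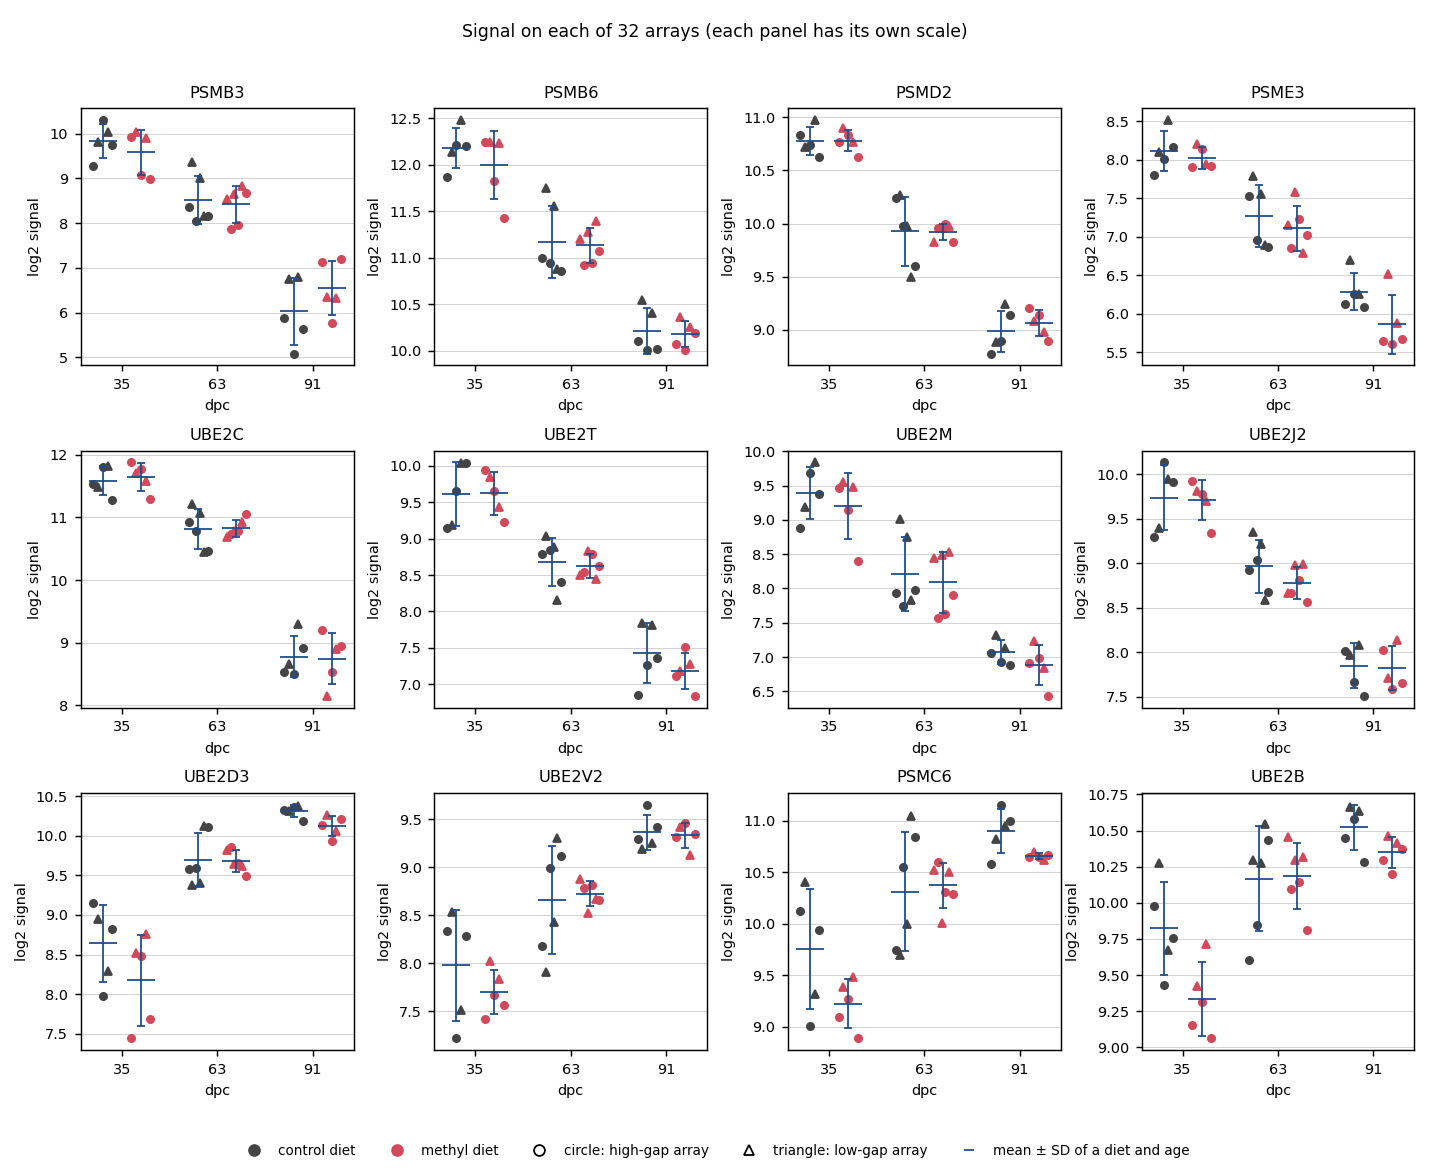
Log2 signal of 12 members on each of 32 arrays against age in dpc, each panel on its own scale, by diet (colour) and spike-in gap (shape), with the mean and SD of each diet and age. UBE2C, UBE2T, PSMD2 and PSME3 separate all 3 ages downward, and UBE2D3 separates 35 from 63 dpc upward.

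Set against 35 dpc directly, the 91 dpc livers had 29 of 37 proteasome genes lower and 3 higher (PSMC6, PSMA3 and PSMD1), and 11 of 23 UBE2 genes lower and 7 higher. Of all probe sets, 39.1% were lower and 40.8% higher. The calls of PSMD1, PSMD14 and UBE2H here were each undone by omitting any of 10 single arrays, that of PSMC2 by any of 7 and that of PSME1 by either of 2, while PSMD12 gained one without any of 4. This comparison uses the same arrays as the 2 intervals. The largest span was that of PSMB3 (-3.42 ± 0.23), followed by UBE2C (-2.86 ± 0.12), and the largest rise that of UBE2D3 (1.81 ± 0.15). All 7 constitutive beta subunits were below their 35 dpc range on every array of 91 dpc. In all 26 members were lower and 3 higher without overlap, beside 18.7% and 21.4% of all probe sets. Quantile normalization moved the median of all probe sets from 0.0049 to -0.15 here, and gave 30 proteasome genes lower and 3 higher, and 11 UBE2 genes lower and 6 higher, where 45.0% of all probe sets were lower and 37.1% higher.

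The age changes were fitted again in each diet on its own arrays, so that the 2 fits share no sample. From 35 to 63 dpc 16 proteasome genes were called in control-diet arrays and 23 in methyl-diet arrays, fits in which 33.4% and 50.8% of all probe sets were called. All 16 were called in both with the same sign, which is 100% of the first and 69.6% of the second set. For UBE2 genes the counts were 8 and 17, with 8 shared (100% and 47.1%). The sign was the same for 32 of 37 and 20 of 23 genes. From 63 to 91 dpc, where 40.5% and 45.7% of all probe sets were called, 22 and 23 proteasome genes were, with 21 shared (95.5% and 91.3%), and 11 and 11 UBE2 genes, with 9 shared (81.8% and 81.8%). None was called with opposite signs in either interval. The same held between high-gap and low-gap arrays, where 17 proteasome genes (of 23 and 18) and 10 UBE2 genes (of 14 and 11) were called in both in the first interval, beside 53.8% and 31.3% of all probe sets in the 2 fits. In the second these were 19 (of 25 and 21) and 7 (of 11 and 10), beside 49.9% and 34.3%. With the spike-in gap as a block in the fit of all arrays, 43 and 44 members were called in the 2 intervals, against 43 and 42 without it. Of all probe sets 64.1% and 61.0% were called with the block, and 60.5% and 58.5% without.

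**Figure D4:**
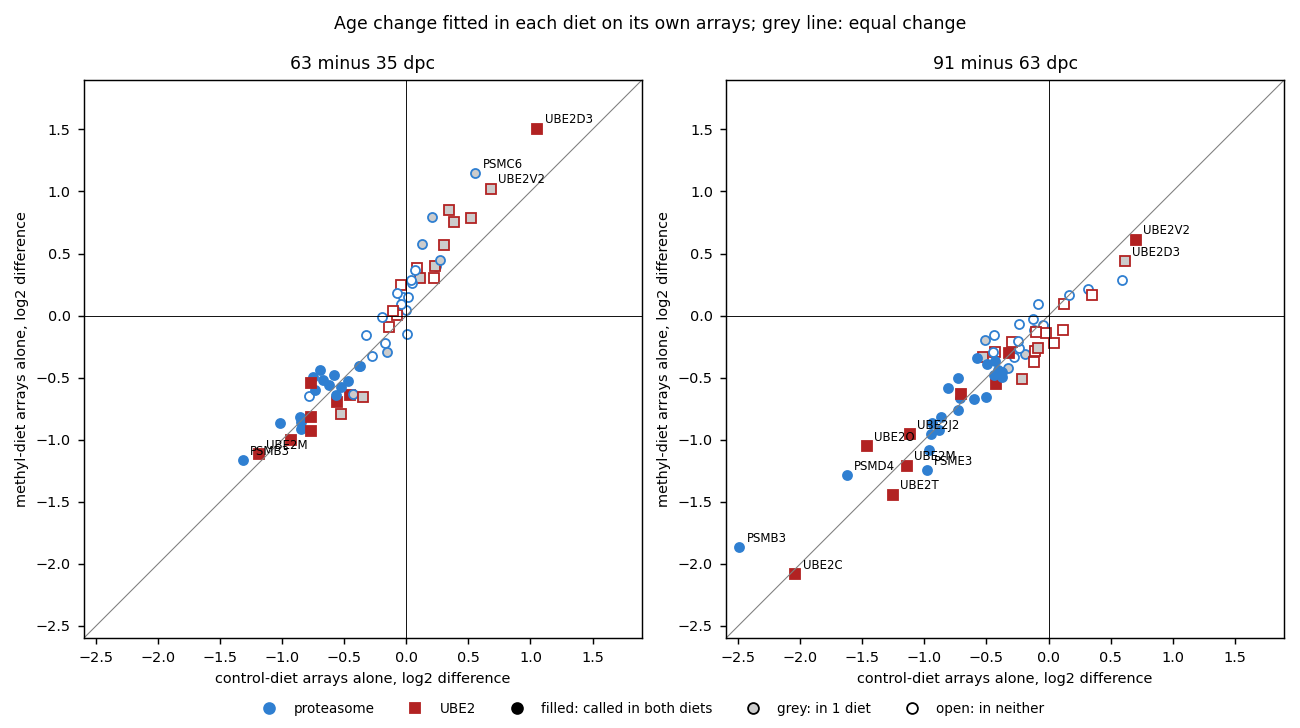
Log2 age change of each member in methyl-diet arrays alone against that in control-diet arrays alone, for 63 minus 35 dpc and 91 minus 63 dpc. Points on the grey line changed equally in both, and UBE2C and PSMB3 lie farthest down in the right panel.

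Markers of other cells and of hepatocytes moved over the same intervals. Of the 7 hepatocyte markers 4 rose from 35 to 63 dpc, ALB by 3.37 ± 0.19 and FGB by 0.98 ± 0.11, and 2 rose and 2 fell from 63 to 91 dpc. Of the 9 erythroid markers 7 fell and 1 rose in each interval, with median differences of -0.64 and -1.78. Of 4 macrophage markers 3 rose and 1 fell from 63 to 91 dpc, and of 4 measured lymphocyte and antigen-presenting markers 3 rose. All 5 neutrophil markers rose in the first interval and fell in the second. The part of these cells in the members' changes was not tested beyond the erythroid mean. The T cell marker CD3E stayed between 2.204 and 2.331 at 91 dpc, close to background. With the erythroid mean of each array as a covariate, the first interval had 36 members called, 26 lower and 10 higher, beside 22.5% and 25.9% of all probe sets. In the second interval 0 were called by limma (17 at an unadjusted p under 0.05), beside 4.52% of all probe sets, and 44 of 60 differences were below 0, with a median of -0.26. The erythroid mean does not overlap between 63 and 91 dpc, so age and erythroid level cannot be told apart there. Under that covariate the second-interval difference was -1.40 for UBE2T, -1.32 for PSME3 and -0.99 for UBE2C, with SEs of 0.45, 0.43 and 0.33. It was -0.09 ± 0.60 for PSMB3 and -0.03 ± 0.23 for PSMB7. Of the 60 members 11 changed sign in that interval, among them PSMD4 (1.15), PSMD5 (0.37) and UBE2O (0.041), which had been called without the covariate. In the first interval PSMB3 no longer passed (-0.58, limma adjusted p = 0.0627), while PSMB6 (-0.70) and PSMD2 (-0.81) did. From 35 to 91 dpc 9 proteasome genes were lower with it and 29 without, against 12.9% and 39.1% of all probe sets.

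In 15 members more than 1 probe set carries the symbol, and 19 further probe sets of members were tested. In the first interval 8 of them were called with the same sign as the brightest one, 0 with the opposite sign, and for 11 not both passed. In the second these counts were 5, 0 and 14. UBE2T fell on both of its probe sets (-0.97 and -1.36, then -1.35 and -1.87), as did UBE2O (-0.66 and -0.49, then -1.26 and -0.51). UBE2D2 was less uniform: the brightest probe set rose by 0.57 in the first interval, the next by 1.18, and the remaining one had 0.09, which did not pass. In the second interval the next rose by 0.52 ± 0.14 (limma adjusted p = 0.00268), and the brightest (0.00) and the remaining one (-0.13) did not pass. UBE2A fell from 63 to 91 dpc on its dimmer probe set (-0.41 ± 0.11, limma adjusted p = 0.00151), where the brightest had 0.11 and did not pass. PSMC2 passed on 2 dimmer probe sets in the first interval (0.71 and 0.42) and not on the brightest (0.05). In the second its fall was on the brightest alone, and the dimmer ones did not pass (0.02 and -0.16). UBE2H rose from 63 to 91 dpc on its dimmer probe set (0.57 ± 0.16, limma adjusted p = 0.00240), while the brightest had -0.25 ± 0.17 and did not pass. PSMD11 fell on both dimmer probe sets in the second interval (-0.58 and -0.66), where the brightest did not pass (-0.23).

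Other genes of the pathway were read from lists. Their counts stand beside 28.0% of all probe sets lower and 32.5% higher in the first interval. In the second these shares were 29.0% and 29.5%. Of 4 measured genes listed for assembly or its control, 3 fell in each interval and none rose. These were PSMG1, a chaperone of the core (-0.38 ± 0.09 and -0.68 ± 0.09), PAAF1, which binds the ATPase ring (-0.90 ± 0.15 and -0.98 ± 0.15), and PSMF1, a proteasome inhibitor and no assembly factor (-0.50 ± 0.20 and -1.52 ± 0.20). PSMG3 passed in neither (-0.29 and 0.04). Of 5 proteasome-bound or shuttle genes 4 and then 3 fell and 0 rose, with VCP, the segregase that pulls proteins out of complexes, at -0.37 ± 0.07 and -0.50 ± 0.07, and its partner UFD1 at -0.58 ± 0.13 and -1.03 ± 0.13. The ubiquitin genes UBB and RPS27A did not pass in the first interval and fell in the second (-0.27 ± 0.06 and -0.10 ± 0.04). The E1 side had 3 rises and 1 fall among 4 in the first interval, then 1 and 1. UBA3 and NAE1 together form the E1 for NEDD8. UBA3 rose in both (1.12 ± 0.19 and 0.87 ± 0.19) and NAE1 in the first (0.38 ± 0.17), the intervals in which their E2 partners UBE2M and UBE2F fell. SAE1, of the E1 for SUMO, fell in both (-0.49 ± 0.09 and -0.64 ± 0.09), while its partner UBA2 rose in the first (0.72 ± 0.16). Of 8 genes of the anaphase-promoting complex 3 fell and 1 rose, then 5 fell and 0 rose. CDC20, the activator of that complex, had -1.11 ± 0.15 and -1.59 ± 0.15, beside the falls of UBE2C. The antigen processing list, which holds PSMB8 and PSMB10 too, had 1 rise and 2 falls among 7, then 2 rises and 1 fall. IRF1 rose in both (0.34 ± 0.13 and 1.03 ± 0.13) and TAPBP in the second (0.43 ± 0.12), and ISG15 fell in the second (-1.39 ± 0.32). None of the 4 listed regulators (NFE2L1, NFE2L2, NGLY1 and DDI2) is named on the array.

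The diet comparisons asked whether the methyl-enriched gestation diet changed these genes in the fetus. By limma 0 members passed at 35, 63 or 91 dpc, in the average over ages, or in the test of whether the diet effect differed between ages. Over all probe sets 0.0391%, 0.0%, 0.0718%, 0.0% and 0.0% passed in these 5 comparisons. At an unadjusted p under 0.05 the members numbered 8, 1, 2, 9 and 0 of 60, and all probe sets 933, 219, 1000, 685 and 660 of 15327. Differences between the diets (methyl minus control) ran from -0.53 to 0.28 at 35 dpc, from -0.26 to 0.16 at 63 dpc and from -0.42 to 0.52 at 91 dpc, and were below 0 for 48, 40 and 39 of the 60 members. Over all probe sets 8315, 6425 and 8832 of 15327 were below 0. At 35 dpc the median over members was -0.15, against -0.02 over all probe sets.

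At 35 dpc UBE2B had the smallest p. It was 9.43 to 10.28 (median 9.76) in control-diet and 9.06 to 9.72 (median 9.32) in methyl-diet arrays (log2 difference -0.49 ± 0.16, unadjusted p = 0.00522, limma adjusted p = 0.584), and the 2 diets overlapped. UBE2K followed, at 7.73 to 8.39 (median 8.21) and 7.43 to 8.07 (median 7.87) (log2 difference -0.35 ± 0.14, unadjusted p = 0.0147, limma adjusted p = 0.728). In the control diet its replicate 3 (7.73) lay apart below the rest. At 63 dpc the smallest p was that of PSMC1, with 9.51 to 9.94 (median 9.70) in controls and 9.34 to 9.59 (median 9.53) under the methyl diet (log2 difference -0.22 ± 0.10, unadjusted p = 0.0426, limma adjusted p = 1). PSMA4 was next, with 10.70 to 11.29 (median 10.91) and 10.35 to 11.02 (median 10.76) (log2 difference -0.24 ± 0.13, unadjusted p = 0.0691, limma adjusted p = 1). At 91 dpc UBE2F led, with 8.73 to 9.12 (median 8.98) and 8.46 to 8.93 (median 8.60) (log2 difference -0.29 ± 0.12, unadjusted p = 0.0248, limma adjusted p = 0.641). PSME3 had 6.09 to 6.70 (median 6.26) and 5.61 to 6.52 (median 5.67) (log2 difference -0.42 ± 0.20, unadjusted p = 0.0378, limma adjusted p = 0.72), with 1 high array in each diet. Averaged over ages UBE2E3 (log2 difference -0.15 ± 0.06, unadjusted p = 0.0142, limma adjusted p = 0.999) and PSMD6 (log2 difference -0.19 ± 0.07, unadjusted p = 0.0144, limma adjusted p = 0.999) came first. The diets overlapped for each of the 6 members given by diet and age. These are differences of 1.11-fold to 1.40-fold, and a p that misses the threshold does not show that the diets were alike.

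**Figure D5:**
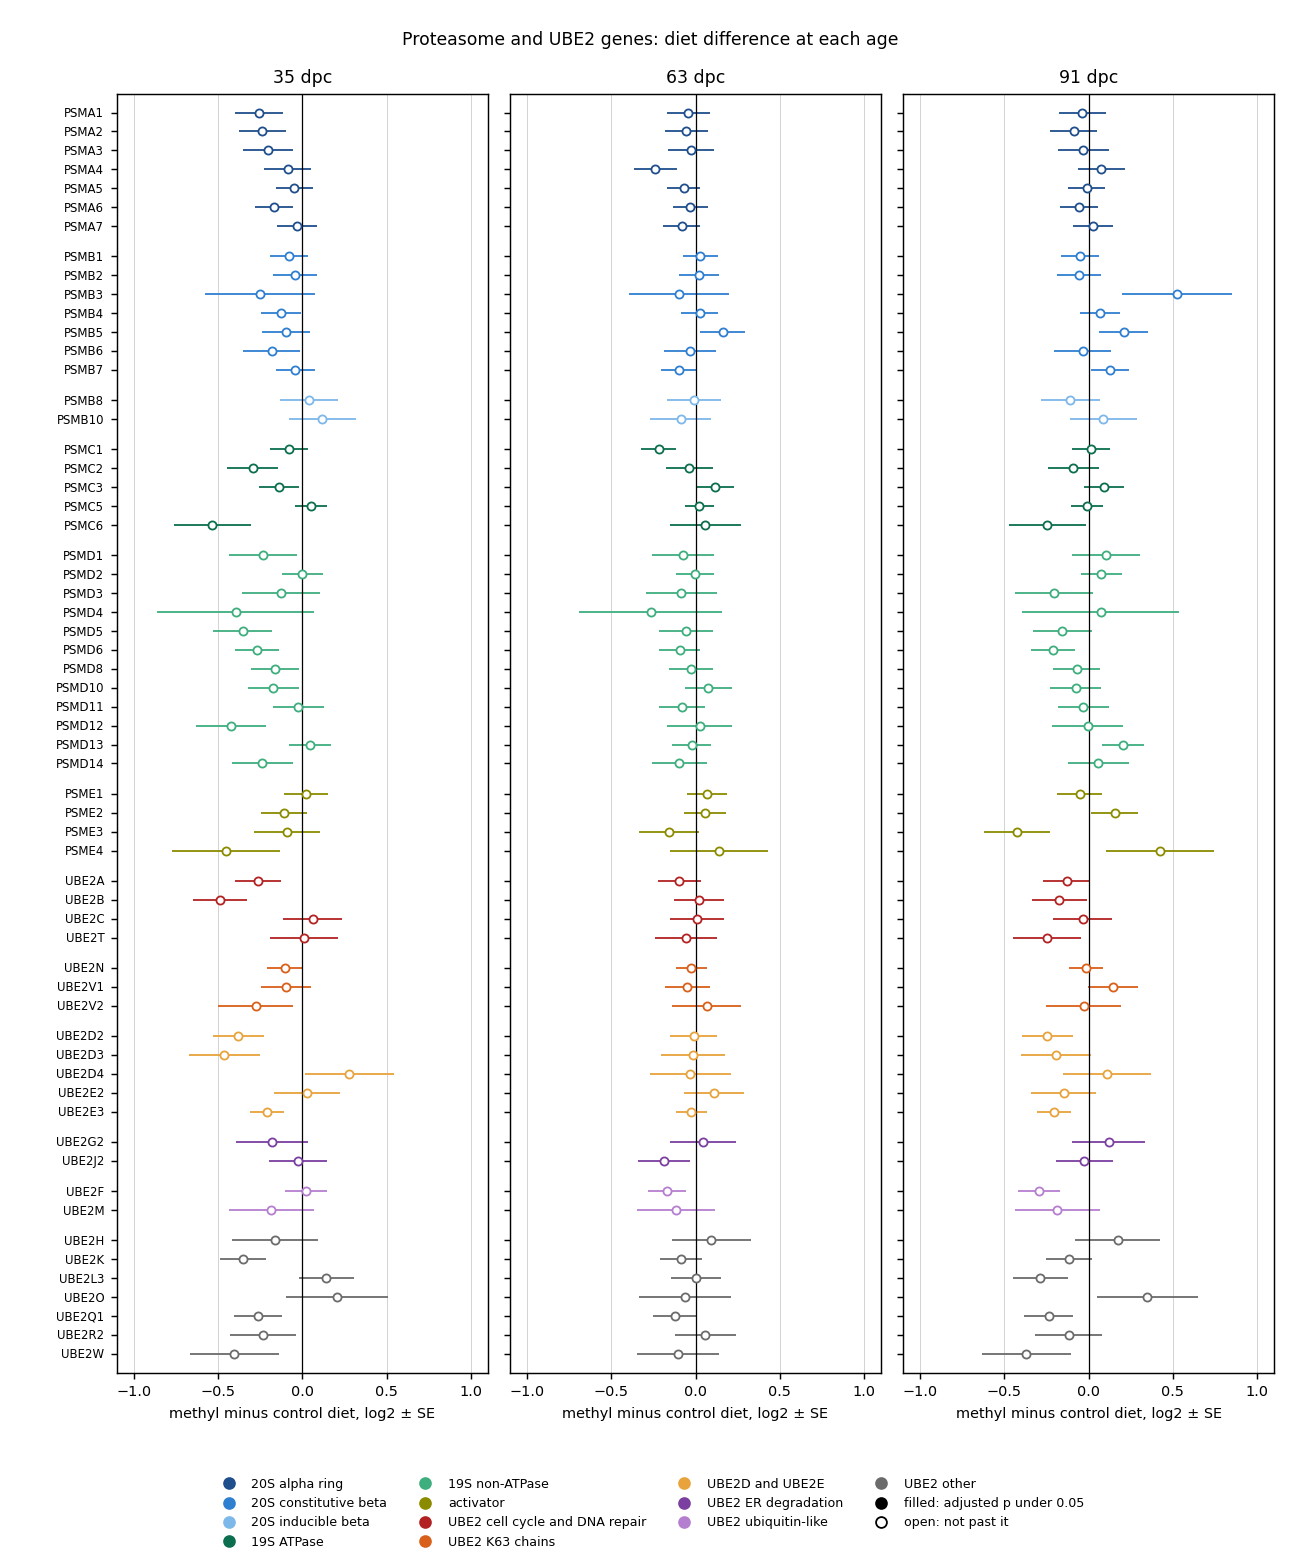
Log2 difference between methyl-enriched and control diet with its SE for the 60 members tested, at 35, 63 and 91 dpc. All points are open, since none passed an adjusted p of 0.05 by limma, and at 35 dpc 48 of 60 lie left of 0.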

How the data were processed

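Liver RNA of 32 Pietrain fetuses was hybridised to a porcine Affymetrix expression array as biotinylated cRNA, per the labels' protocols. The deposited values are log2 signals, 1 per probe set and array, from 2.20 to 16.6. Per the submitters' processing notes the software was GCOS 1.1.1. The normalization between arrays is not given in the sources used here, and values were used as deposited.

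Of 23999 probe sets, beside 124 controls, 15327 lay above their array's 40th percentile in at least 5 arrays and were tested. limma 3.58.1 (R 4.3.3) fitted 1 mean per age and diet with an intensity trend, and p-values were adjusted by Benjamini-Hochberg over all 15327. The fit was tested on simulated data. Each ± is an SE. Replicate numbers follow the order of deposit and pair nothing.

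The array annotation gives 10099 probe sets 1 symbol, 198 several and 13826 none. RefSeq lists 60 of the 61 members, all under the same symbol. Members, classes, lists, and the naming rule were chosen with earlier results of these data known. The rule gives levels for the 5 largest called rises and falls of each interval, the catalytic beta subunits, and the 2 smallest p of each diet contrast. Of other lists it names up to 3 called genes, and further levels (PSMA3, PSMC3, PSMD2, UBE2J2) and genes (NAE1) were chosen after their values were seen. Promoter motifs were not searched, since no sequence table was used here. Alternatives were no trend, robust spread, no or a stricter filter, array weights, quantile normalization, a single probe set for each gene, a threshold of 0.10, subsets of arrays, a spike-in block, the erythroid mean as a covariate, the mean of a member's probe sets and leaving out each array. The 3' to 5' covariate was added after seeing the data.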

Additional observations from a re-analysis of the deposited data

Results flagged for a closer look

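For the 23 members that the naming rule chose, each of the 138 sets of 5 or 6 arrays was searched for an array far from the others. The search found 8. Chance gives about 1 in 20 sets, a share close to this one, so the flags alone do not show that these arrays are unusual. PSME3 was high in replicate 2 of both diets at 91 dpc, at 6.70 in control and 6.52 in methyl, against 6.26 and 5.87 for the next arrays. Both are low-gap arrays. PSMB8, near background, was high in control 35 dpc replicate 3 (3.43) and low in methyl 63 dpc replicate 3 (2.53), where the others sat at 2.58. PSMB7 was low in methyl 35 dpc replicate 5 (11.85), PSMD4 in control 35 dpc replicate 1 (9.87) and UBE2K in control 35 dpc replicate 3 (7.73). UBE2E3 was low in control 63 dpc replicate 1 (11.53).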

How the results depend on the processing

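Over 49 alternatives, leaving out each of 32 arrays among them, 771 counts of called members stayed within 1.5 times the reported one, 30 were lower and 12 higher. Of the values of the 23 members that the naming rule chose, each in the comparison that chose it, 1682 kept their direction and side of the threshold, 47 lost and 13 gained a call, and 2 changed sign. Over all 60 members, leaving out each array changed the call of 7 members from 35 to 63 dpc, of 6 from 63 to 91 dpc and of 6 from 35 to 91 dpc. The diet comparisons had 0 called members by limma under each of these alternatives.

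With the erythroid mean as a covariate, from 63 to 91 dpc 0 proteasome genes were lower, 0 higher, and 0 UBE2 genes lower or higher. From 35 to 91 dpc 9 proteasome genes were lower, and 2 UBE2 genes higher and 5 lower. With it 4, 11 and 7 of the 60 members changed sign from 35 to 63, 63 to 91 and 35 to 91 dpc. Of these 1, 3 and 4 had been called, among them PSMD4 (1.15) and UBE2O (0.041) from 63 to 91 dpc.

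The small counts of rises moved under more settings. The 5 proteasome rises from 35 to 63 dpc were 2 without the filter and 0 in control-diet or low-gap arrays alone. They ran from 2 to 6 on leaving out each array, with 2 without control 35 dpc replicate 3 or 4, methyl 35 dpc replicate 5, control 63 dpc replicate 5 or 6, or methyl 63 dpc replicate 2. They numbered 3 without methyl 35 dpc replicate 1 or 2, control 63 dpc replicate 3, or methyl 63 dpc replicate 1 or 4. The 8 UBE2 rises were 1 in control-diet and 4 in low-gap arrays alone. The single proteasome rise from 63 to 91 dpc was 3 with array weights, and 2 with 1 probe set per gene, a threshold of 0.10 or arrays of the compared ages alone. It was 0 in control-diet, methyl-diet, high-gap or low-gap arrays alone and with the 3' to 5' difference as a covariate. On leaving out each array it ran from 1 to 2, the gained call being PSMB8 without control 35 dpc replicate 3, methyl 35 dpc replicate 1, control 91 dpc replicate 1, 2 or 4, or methyl 91 dpc replicate 1, 4 or 5. The 3 UBE2 rises were 1 in methyl-diet and in low-gap arrays alone. Subsets hold fewer arrays, and the cause of the other changes was not tested. No paired analysis was possible because the replicate numbers follow the order of deposit and are in no label. PSMB8, UBE2D4, UBE2QL1 and UBE2W repeat a single low value on several arrays, which limits what their differences show.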
